A study of Rattus norvegicus with 18 samples.

Results

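miR-126a is a microRNA (miRNA) precursor with 2 members in the count table, the arms miR-126a-3p (rno-miR-126a-3p in the table) and miR-126a-5p (rno-miR-126a-5p), out of 753 mature miRNAs listed. The rows were taken by name and not by their values. The libraries were of small RNA from 18 adult Lister hooded rats, taken from dorsal root ganglia (DRG) of lower cervical levels, which hold the cell bodies of sensory neurons. Naive rats (n = 6) had no surgery and no vector. In bPYX+GFP rats (n = 6) the corticospinal tracts were transected on both sides at the pyramids of the medulla, and a day later forelimb flexors of 1 side received an AAV1 vector that encoded green fluorescent protein under the CMV promoter. bPYX+NT3 rats (n = 6) had the same lesion and an AAV1 vector that encoded human prepro-neurotrophin-3 under the same promoter. The injured rats were sampled at 10 weeks, and the ganglia of the treated side of each rat gave 1 library. No group had the lesion without a vector or a vector without the lesion, so effects of lesion, injection and AAV1 cannot be told apart in the comparisons with naive rats.

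A miRNA is cut from a hairpin whose 5′ and 3′ arms can each be loaded into a silencing complex, where bases 2 to 8, the seed, select messenger RNAs for repression. miR-126 lies in an intron of Egfl7, a gene of endothelial cells, and is known as the miRNA most typical of endothelium. Its 3p arm is known to repress Spred1 and Pik3r2, inhibitors of signalling from the vascular endothelial growth factor receptor, and Vcam1, which binds leukocytes. DRG are densely supplied with capillaries, so endothelial RNA is part of a whole ganglion.

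The mature sequences of the members and of miR-126b, a miRNA annotated at the same place, are shown 5′ to 3′ with the seed in capitals, since the counts of the arms differ so widely. They are from RefSeq, assembly GRCr8, where the miR-126a arms lie on the plus strand, the strand of Egfl7, and miR-126b on the minus strand.
miR-126a-3p: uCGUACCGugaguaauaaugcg
miR-126a-5p: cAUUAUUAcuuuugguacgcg
miR-126b: uACCAAAAguaauaaugugcug
Each of these seeds was unique among the 688 listed miRNAs that matched RefSeq by name. The sequence nearest to miR-126a-3p, miR-101a-3p, was 9 edits away, and each of the 3 sequences had 1 place in the RefSeq table. RefSeq gives the miR-126a arms the gene symbol Mir126b and miR-126b the symbol Mir126a, so the members are named here as in the count table.

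miR-126a-3p was among the miRNAs with the most counts in the table. It had from 92091 to 145588 counts per library, against 3.88 to 6.92 M counts for all miRNAs together (M is the SI prefix mega), and took 2.44 ± 0.21% of them (SD, n = 18). By mean CPM (counts per M with TMM scaling, which corrects for differences in composition between libraries) it ranked 10 of the 373 miRNAs that passed the detection filter of more than 10 counts in at least 6 libraries. Its rank within a library ran from 8 to 13. Share and ranks are of counted reads only. Of all reads, 31.4% were left out for low alignment quality and 3.26% as ambiguous, and their miRNAs of origin are not known. The part of these reads in the ranks was not tested. Counting error was small beside the differences between rats: the bounds of the 95% Wilson interval lay on average at most 0.64% of the value away from it.

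The miRNAs next above it in mean CPM were miR-182 (25160 ± 2534 CPM, SD, n = 18), miR-22-3p (27876 ± 6352) and let-7i-5p (40645 ± 4259). miR-126a-3p had 24446 ± 2739 CPM, and next below it were let-7g-5p (22504 ± 1592), miR-30d-5p (21537 ± 2411) and miR-30a-5p (20492 ± 2867). miR-182 belongs to a cluster typical of sensory neurons, so in counts the endothelial miRNA stood beside a neuronal one. let-7i-5p was above miR-126a-3p in 18 of 18 libraries. The order of the others was not the same in each rat. miR-182 was above miR-126a-3p in 13 libraries, miR-22-3p in 10, let-7g-5p in 5, miR-30d-5p in 3 and miR-30a-5p in 2. Counts of different miRNAs are not calibrated to molecules, so these ranks are ranks of reads.

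**Figure D1:**
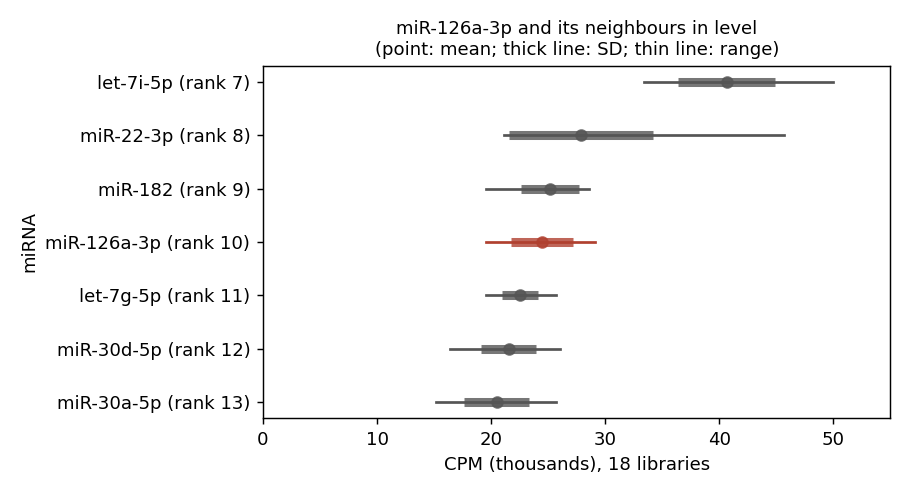
Mean CPM, on an axis in units of 1000 (point), SD (thick line) and range (thin line) over 18 libraries for miR-126a-3p, in red, and the 3 miRNAs next above and below it in mean CPM. The range of miR-126a-3p, 19521 to 29100 CPM, overlaps those of all 5 miRNAs shown other than let-7i-5p, whose lowest library had 33402 CPM.

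The level varied little between rats of a group. The SD of log2 CPM within groups was 0.17 for miR-126a-3p, against a median of 0.22 over the 373 tested miRNAs, and 99 of them had a smaller one. Among the 30 most abundant miRNAs its SD ranked 15 from the lowest and their median was also 0.17, so its steadiness was that of other abundant miRNAs.

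In naive rats miR-126a-3p had 21026 CPM in the lowest library, a median of 25540 and 29100 in the highest. In bPYX+GFP rats these values were 20897, 24669 and 26671 CPM. In bPYX+NT3 rats they were 19521, 23356 and 28526 CPM. The groups overlapped in every pair, where 4.02% (bPYX+GFP and naive), 0.536% (bPYX+NT3 and bPYX+GFP) and 1.34% (bPYX+NT3 and naive) of all tested miRNAs did not. The lowest rats were naive replicate 1, bPYX+GFP replicate 5 and bPYX+NT3 replicate 3, the last close to replicate 6 of its group, at 20569 CPM. Naive replicate 1 is, by the rat numbers in the header of the table, the rat that the study left out as an outlier. The group means were 25429 ± 2715 CPM (naive), 24315 ± 2074 (bPYX+GFP) and 23593 ± 3433 (bPYX+NT3) (SD, n = 6 each). The order was thus naive, bPYX+GFP, bPYX+NT3, and no step in it was larger than the SD of either group.

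**Figure D2:**
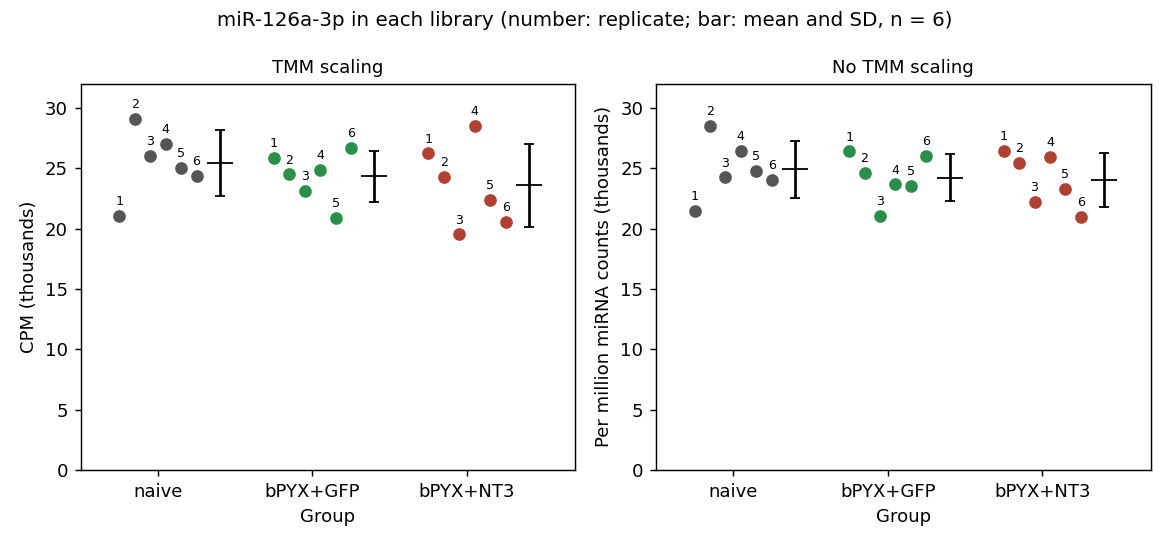
miR-126a-3p in each of 18 libraries, with TMM scaling (left, CPM) and as counts per M miRNA counts without it (right), both on axes in units of 1000. Points are libraries with their replicate number, and bars are the mean and SD of 6 rats. The 3 groups overlap on both scales, with means from 23593 to 25429 on the left and from 24045 to 24902 on the right.

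Naive and bPYX+GFP rats were compared to ask whether the level differed after corticospinal tract injury. The log2 fold change of miR-126a-3p was -0.06 ± 0.08 (SE, edgeR quasi-likelihood test, Benjamini-Hochberg adjusted p = 0.710 over 373 miRNAs). Its 95% interval, from -0.24 to 0.11, corresponds to a level between 0.847 and 1.08 times that of naive rats. In 4 of 6 bPYX+GFP libraries the value was below the naive mean. Of all tested miRNAs 2.41% had an adjusted p under 0.05 in this comparison (9 miRNAs with edgeR and 23 with DESeq2), and 21.2% had an unadjusted p under 0.05. The 1 tested member was not among them, at an unadjusted p of 0.443. Without naive replicate 1 the log2 fold change was -0.11 (edgeR adjusted p = 0.454). No difference was thus detected. In bulk ganglia, a change in the number of endothelial cells and one in the miRNA per cell could not have been told apart.

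Among injured rats, those given NT3 were compared with those given GFP to ask whether the level differed with neurotrophin-3. The log2 fold change was -0.03 ± 0.09 (SE, edgeR adjusted p = 0.912). With the scaling of these 12 libraries, 3 of 6 bPYX+NT3 libraries were above and 3 below the bPYX+GFP mean (24467 CPM). With that of all 18 libraries, bPYX+NT3 replicate 2 lay just below the bPYX+GFP mean instead (24307 against 24315 CPM). The interval, from -0.23 to 0.17, spans 0.850 to 1.12 times the level with GFP. Without bPYX+NT3 replicate 6 the sign turned, to 0.01 (edgeR adjusted p = 0.984). No miRNA had an adjusted p under 0.05 here (0% of 373 with edgeR, 0 also with DESeq2, 32 or 8.58% at an unadjusted p under 0.05).

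Lastly, injured rats given NT3 were compared with uninjured ones. Here the log2 fold change was -0.11 ± 0.10 (SE, edgeR adjusted p = 0.687), with 4 of 6 libraries below the naive mean. The interval was from -0.33 to 0.11, or 0.798 to 1.08 times the naive level. Of all tested miRNAs, 0% had an edgeR adjusted p under 0.05 (13.7%, or 51, had an unadjusted p under 0.05, and 1 passed with DESeq2). Without naive replicate 1 the log2 fold change was -0.16 (edgeR adjusted p = 0.474).

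The same comparisons were made on counts per M miRNA counts without TMM scaling. Means were 24902 ± 2382 (naive), 24201 ± 1947 (bPYX+GFP) and 24045 ± 2223 (bPYX+NT3) (SD, n = 6 each). A two-sided exact permutation test over 924 splits of 12 libraries gave p = 0.580 for bPYX+GFP against naive, 0.887 for bPYX+NT3 against bPYX+GFP and 0.530 for bPYX+NT3 against naive (Benjamini-Hochberg adjusted over the 3, exact permutation p = 0.870, 0.887 and 0.870). The order of the means was as with TMM scaling, but the low rat of the bPYX+GFP group was replicate 3 on this scale, at 21039 per M, and replicate 5 had 23516. That of the bPYX+NT3 group was replicate 6, at 20982 per M.

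miR-126a-5p, the other arm, had 0 counts in all 18 libraries. The limit that 3 counts allow is from 0.434 to 0.773 per M miRNA counts of a library, for counting error only. In each library miR-126a-3p was at least 30697-fold higher than that limit. miR-126b had 1 count in all, in bPYX+NT3 replicate 1. Neither passed the detection filter, so no comparison of groups could be made for them, and a difference in miR-126a-5p was not detectable in this table.

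Such a count is uncommon for the arm of an abundant precursor. Both arms were listed under 1 name for 280 precursors, and in 94 of these the higher arm had a mean of over 1000 counts. Over these 94 precursors the lower arm took a median of 1.20% of the counts of both arms. miR-126a ranked 9 of 94 by its higher arm. Among the 6 precursors whose lower arm had 0 counts in every library it had the highest count of the other arm. The others were miR-191a (mean count of the higher arm 32896), miR-382 (6212), miR-409a (2591), miR-450a (2340) and miR-214 (1031). The next smallest share was in miR-21, a miRNA raised in many injured tissues, whose 3p arm had 52 counts over the 18 libraries, or 0.00304% of both arms.

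In RefSeq, miR-126a-5p and miR-126b lie on opposite strands of the same place and overlap by 17 bases. They are shown again, 5′ to 3′, with the overlapping part in capitals, which pairs at 17 of 17 bases.
miR-126a-5p: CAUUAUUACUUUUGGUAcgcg
miR-126b: UACCAAAAGUAAUAAUGugcug
None of the 687 other matched miRNAs overlaps miR-126a-3p on either strand. Of the 94 precursors, 6 had a lower arm opposite another listed miRNA by at least 1 base, and 5 of these lower arms had 0 counts in every library. The exception was let-7d-5p, with 1719 counts in all. The overlap was 17 to 21 bases in 5 of the 6, but 1 base for miR-214-5p, whose opposite, miR-3120, had 250 counts in all. Of the other 88, 1 had a lower arm at 0, that of miR-450a. Over the whole table, 82 of the 94 miRNAs that lie opposite another listed one (87.2%) had 0 counts in every library, as had 81 of the 594 other matched miRNAs (13.6%). Counting with HTSeq leaves out reads that fit more than 1 feature and adds them to a total of ambiguous reads, and the strand setting used is not given in the sources used here. That total was from 0.324 to 0.661 M reads per library, or 2.76 to 4.57 reads for each count of miR-126a-3p, and the table does not say which miRNAs they came from. The part of the overlap in the counts of miR-126a-5p was not tested.

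**Figure D3:**
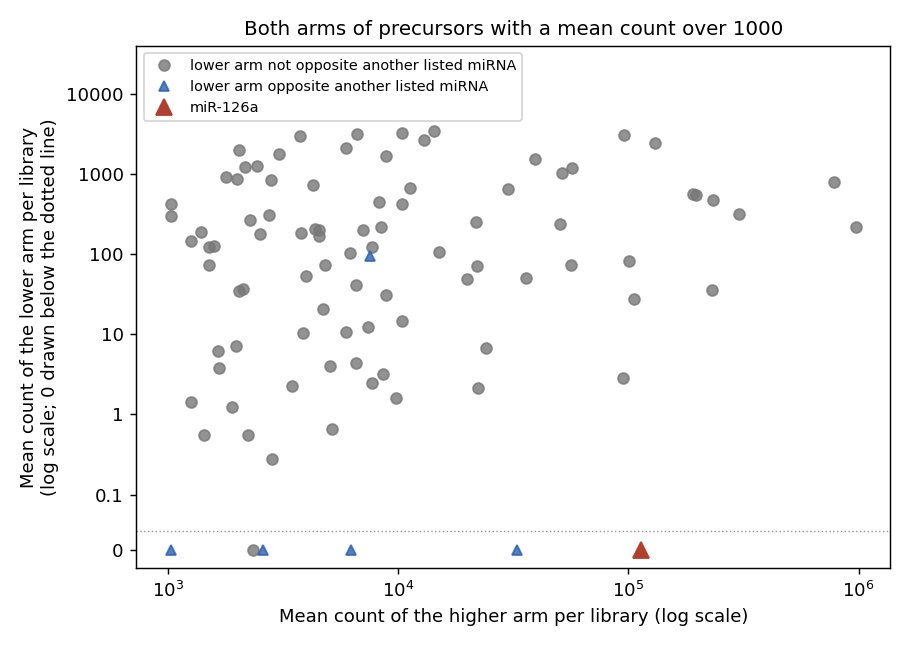
Mean count per library of the lower arm (vertical, log scale, with 0 drawn below the dotted line) against that of the higher arm (horizontal, log scale) for 94 precursors with a higher arm over 1000 counts. Triangles mark the 6 precursors whose lower arm lies opposite another listed miRNA in RefSeq by at least 1 base (1 base for miR-214), with miR-126a in red. The lower arm is at 0 in 5 of these 6 and in 1 of the other 88.

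To set miR-126a-3p beside other miRNAs of blood vessels, a list of 20 miRNAs studied in endothelium was used, both arms and miR-126b included. Most of them are also expressed in other cell types. Of the 20, 12 passed the detection filter and 3 had 0 counts in all libraries: miR-126a-5p, miR-130a-3p and miR-210-3p. Each of these 3 lies opposite another listed miRNA, miR-130a-3p by 21 bases and miR-210-3p by 22, so their counts do not show that they were absent. The others that did not pass had from 1 (miR-126b) to 134 (miR-19a-3p) counts in all, with 6 for miR-24-3p. In bPYX+GFP against naive rats, 0 of the 12 had an edgeR adjusted p under 0.05, where 2.41% of all tested miRNAs did. At an unadjusted p under 0.05, 2 of the 12 were higher and 0 lower, where 10.7% and 10.5% of all tested miRNAs were. The median log2 fold change of the 12 was -0.05, against 0.0036 over all tested miRNAs.

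Within the vessel list, the miRNAs of smallest p in this comparison were miR-222-3p, miR-27a-3p and miR-221-3p, which ranked 72, 75 and 101 by p among all 373. miR-222-3p shares its seed with miR-221-3p, and miR-27a-3p shares its own with miR-27b-3p, the most abundant of the list, as the capitals show in their RefSeq sequences, 5′ to 3′.
miR-221-3p: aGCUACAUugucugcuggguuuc
miR-222-3p: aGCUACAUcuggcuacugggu
miR-27a-3p: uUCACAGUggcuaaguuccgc
miR-27b-3p: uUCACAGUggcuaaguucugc
miR-222-3p, known to repress Kit in endothelium, had a lowest, median and highest value of 299.7, 309.0 and 404.1 CPM in naive rats, 343.9, 368.4 and 401.7 with GFP, and 329.3, 369.2 and 405.6 with NT3. All 6 bPYX+GFP libraries were above the naive mean, though 1 naive library was above all of them. Its log2 fold change after injury was 0.18 ± 0.08 (SE, edgeR adjusted p = 0.232), that of miR-27a-3p was 0.17 ± 0.08 (edgeR adjusted p = 0.232) and that of miR-221-3p was 0.17 ± 0.09 (edgeR adjusted p = 0.314). Without naive replicate 2, the edgeR adjusted p was 0.0405 for miR-221-3p at a log2 fold change of 0.27, and 0.0467 for miR-222-3p at 0.24. In that fit 20 of all 373 tested miRNAs had an adjusted p under 0.05, against 9 with all libraries.

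In bPYX+NT3 against bPYX+GFP rats, 0 of the 12 passed the adjusted p (0% of all tested), 0 were higher and 1 was lower at an unadjusted p under 0.05 (5.09% and 3.49% of all tested), and the median log2 fold change was 0.06, against -0.00042 over all tested miRNAs. The 1 was miR-27a-3p, at -0.26 ± 0.09 (SE, edgeR adjusted p = 0.241). It had a lowest, median and highest value of 2392, 2603 and 3062 CPM with GFP and 1922, 2191 and 2563 CPM with NT3, and each of the 6 NT3 rats lay under the mean of the GFP group, though the groups overlapped. In naive rats these values were 1980, 2383 and 2702 CPM, and bPYX+NT3 against naive gave -0.09 ± 0.09 (SE, edgeR adjusted p = 0.700). Its values after injury and with NT3 share the bPYX+GFP libraries. miR-132-3p, which is induced by growth factors in endothelium and by activity in neurons, was at 0.24 ± 0.12 (edgeR adjusted p = 0.587), and miR-218a-5p, which lies in the Slit genes, at -0.20 ± 0.16 (edgeR adjusted p = 0.704). The level of miR-218a-5p was low, with a mean of 8.40 CPM over 18 libraries, and it lies opposite miR-218b by 20 bases.

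In bPYX+NT3 against naive rats, 0 of the 12 passed the adjusted p and 0 had an unadjusted p under 0.05, where 13.7% of all tested miRNAs had one (7.24% higher and 6.43% lower). The median log2 fold change of the 12 was -0.01, as over all tested miRNAs. The smallest p-values were those of miR-218a-5p (log2 fold change -0.31 ± 0.17, edgeR adjusted p = 0.372), miR-222-3p (0.16 ± 0.09, edgeR adjusted p = 0.394) and miR-221-3p (0.23 ± 0.13, edgeR adjusted p = 0.394).

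**Figure D4:**
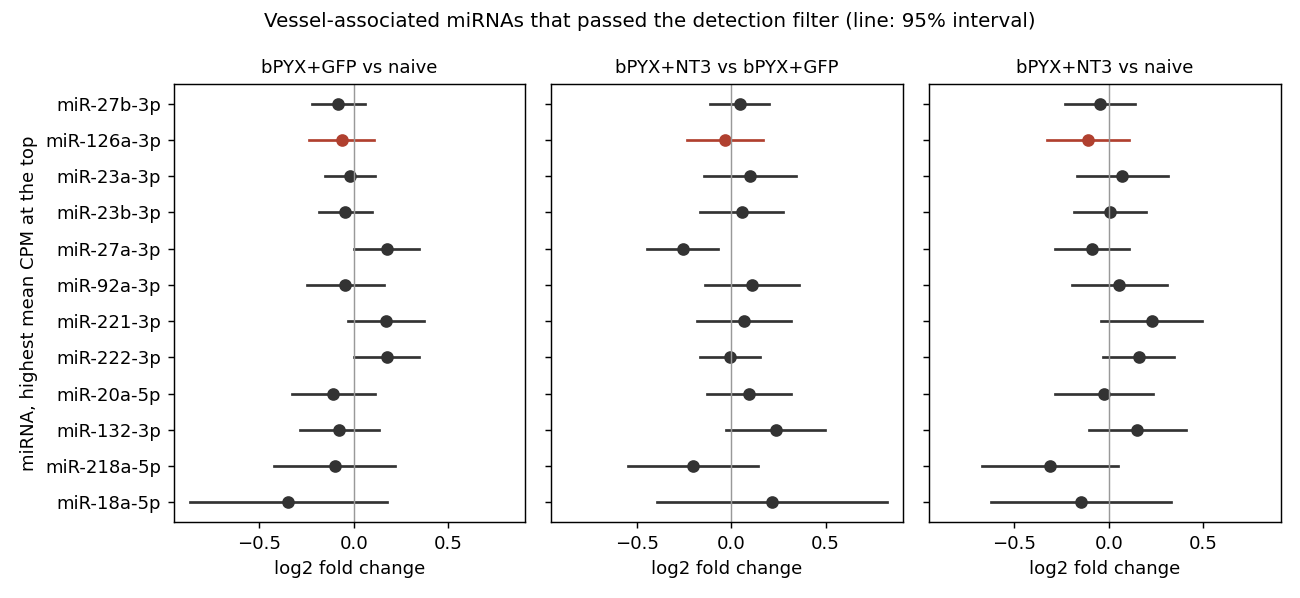
Log2 fold change (point) and its 95% interval (line) for the 12 miRNAs of the vessel list that passed the detection filter, ordered from the highest mean CPM at the top, in the 3 comparisons, with miR-126a-3p in red. The interval of miR-126a-3p spans 0 in each panel, and miR-27a-3p, at -0.26 with NT3 against GFP, lies farthest from 0 relative to its error.

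Levels of miRNAs typical of other cells in the ganglion are given by their summed CPM. Mural cells, the muscle cells and pericytes of vessels, are marked by miR-143 and miR-145, and the 4 arms summed to 51466 ± 11385 CPM in naive rats, 51368 ± 5382 with GFP and 51074 ± 8468 with NT3 (SD, n = 6 each). Nearly all of this was miR-143-3p (49479 CPM over 18 libraries). miR-145-5p, at 1267 CPM, had a log2 fold change of -0.50 ± 0.14 after injury (SE, edgeR unadjusted p = 0.00279, adjusted p = 0.0742) and of 0.40 ± 0.16 with NT3 against GFP (edgeR unadjusted p = 0.0249, adjusted p = 0.442). Both values use the same bPYX+GFP libraries. Of the 4 mural arms, 2 were above and 2 below 0 in each of these comparisons, with median log2 fold changes of -0.04 and 0.01. The 3 red cell miRNAs had 124.8 to 1098 CPM per library, the 5 leukocyte miRNAs 836.9 to 2527 and the 3 fibroblast miRNAs 1387 to 2459. Red cell means were 370.3 ± 149.7 (naive), 468.8 ± 176.1 (GFP) and 489.8 ± 318.3 CPM (NT3). In this order, leukocyte means were 1367 ± 609, 1542 ± 504 and 1331 ± 268, and fibroblast means 1918 ± 288, 1684 ± 167 and 1705 ± 115 (SD). All 3 red cell log2 fold changes were above 0 in both comparisons with naive rats. All 3 fibroblast ones were below 0 after injury. The 4 sensory neuron miRNAs, nearly all of it miR-182 and miR-96-5p, had 23640 to 33100 CPM, with a mean of 27220 ± 2751 in naive rats, 30754 ± 1786 with GFP and 30354 ± 2540 with NT3 (SD, n = 6 each). Those 2 were present in every library. miR-183-5p of that list had 0 counts and lies opposite miR-3553 by 22 bases, and miR-124-3p did not pass the detection filter. The 3 glial miRNAs of the list summed to at most 1.53 CPM, and none passed the detection filter. miR-338-3p and miR-219a-2-3p among them had 0 counts, and each lies opposite another listed miRNA by 20 bases. miR-204-5p and miR-211-5p, also known from glia but not in the list, had 8451 and 166 CPM. None of the tested members of these 6 lists had an edgeR adjusted p under 0.05 in any comparison, where 2.41%, 0% and 0% of all tested miRNAs did. The other members with an unadjusted p under 0.05 were, after injury, miR-182 (0.20 ± 0.08 on the log2 scale, edgeR adjusted p = 0.173) and miR-199a-5p (-0.21 ± 0.10, edgeR adjusted p = 0.232), and, with NT3 against naive, miR-182 (0.19 ± 0.09, edgeR adjusted p = 0.349). Of all tested miRNAs, 21.2% had an edgeR unadjusted p under 0.05 after injury, 8.58% with NT3 against GFP and 13.7% with NT3 against naive. The part of cell composition in the values of miR-126a-3p was not tested.

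With TMM scaling and all libraries, the miRNAs most like miR-126a-3p from rat to rat were miR-152-5p, miR-24-2-5p, miR-204-5p, let-7a-1-3p and miR-493-3p. Over the 18 libraries, each taken as log2 CPM minus its group mean, their Pearson correlations with miR-126a-3p were 0.806, 0.801, 0.767, 0.722 and 0.721, and their Spearman correlations 0.742, 0.808, 0.756, 0.649 and 0.688. The Pearson values are the highest of 372, whose median was 0.06, and the order by Spearman differed. All are a description with no test. Without the 2 libraries farthest from the median, naive replicate 1 and bPYX+NT3 replicate 3, the Pearson values were 0.713, 0.710, 0.635, 0.566 and 0.614, and those of miR-377-5p (0.751), miR-3559-5p (0.728) and miR-365-5p (0.723) were higher than any of them. The points share their library and its scaling factor, with which miR-126a-3p itself had a correlation of -0.637 and the 5 had correlations of -0.594, -0.554, -0.782, -0.578 and -0.717. With library size alone in place of TMM scaling, which was added after seeing the data, the values were 0.697, 0.706, 0.534, 0.574 and 0.493, which rank 2, 1, 8, 4 and 13 among the 372.

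miR-24-2-5p stands in RefSeq next to the genes of miR-23a and miR-27a, and its sequence is shown with the seed in capitals because it ranked 2 with TMM scaling and 1 with library size alone.
miR-24-2-5p: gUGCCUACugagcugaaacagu
Its neighbours differed in this respect. miR-27a-3p had a correlation of 0.494 with miR-126a-3p and miR-23a-3p one of -0.585. In the vessel list the correlations ran from 0.608 for miR-218a-5p (a mean of 39.1 counts per library) to -0.655 for miR-92a-3p with TMM scaling and all libraries. Without the 2 libraries named above, that of miR-27a-3p was 0.270 and that of miR-20a-5p moved from 0.0435 to 0.361.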

How the data were processed

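The authors combined the ganglia of 1 side of each rat, made small RNA libraries with a NEBNext kit, converted base calls with bcl2fastq 1.8.4, trimmed adapters, aligned the reads with Bowtie2 to Rnor_5.0 and counted them per mature miRNA with HTSeq. The deposited values are raw counts with no normalization. The annotation release and the versions of Bowtie2 and HTSeq are not given in the sources used here. The 5 totals of unassigned reads entered neither library sizes nor tests: 3.20% of all reads lay outside miRNAs, 3.26% were ambiguous, 31.4% had low alignment quality and 27.2% were not aligned. Reads are not unique molecules, so intervals and limits cover counting error only.

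Groups and replicate numbers were taken from the sample titles, and each library is 1 rat. No 2 libraries of a group were copies (chi-square per degree of freedom at least 39.6). Each comparison was fitted on its 12 libraries over 373 miRNAs with edgeR 4.0.16 in R 4.3.3 (TMM, quasi-likelihood F test, Benjamini-Hochberg). The SE was taken from the F statistic. Group CPM values use the scaling of all 18 libraries. The study left out naive replicate 1, which was kept here. DESeq2 1.42.0 was among the alternatives. Sequences and neighbours are from RefSeq GRCr8. The counts were made on another build, so no coordinates are given. The members and lists were chosen with earlier results of these data known. The miRNAs named were the members, miR-126b, the 3 next above and below in level, the 5 most correlated, the 3 of smallest p of the vessel list per comparison, where none passed, and precursors with an arm at 0. Other miRNAs, among them miR-27b-3p, miR-23a-3p, miR-92a-3p, the members named from other cells' lists, miR-204-5p and miR-211-5p as glial, the 3 more alike without 2 libraries and the lowest non-zero arm, were named after their values were seen.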

Additional observations from a re-analysis of the deposited data

Results flagged for a closer look

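For 17 measures, each in 3 groups of 6 rats, 5 of the 51 sets of values had an end value far from the rest. Chance gives about 1 in 20 for a single set. The sets are not independent, since several measures rescale the same count or follow read depth, so their number is no test. bPYX+GFP replicate 3 had 6.92 M miRNA counts (next 4.66 M), 19.4 M reads in all (next 13.7 M) and 0.661 M ambiguous reads (next 0.449 M). The summed CPM of the red cell list was 1098 in bPYX+NT3 replicate 2, where the next rat had 571.9. That of the leukocyte list was 2527 in bPYX+GFP replicate 4, where the next rat had 1607. The level of miR-126a-3p set no rat apart by this rule in any group, by count, CPM, per M miRNA counts or per M of all reads. Its level per M without the 5 most abundant miRNAs was not put through the rule. bPYX+GFP replicate 3 had 23097 CPM of it, within the range of its group, but it was the highest of its group by count (145588, next 119242) and the lowest per M miRNA counts (21039), per M of all reads (7522) and per M without the 5 most abundant miRNAs (47853).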

How the results depend on the processing

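For miR-126a-3p no alternative gave an adjusted p under 0.05. Over all settings the adjusted p was from 0.454 to 0.904 for bPYX+GFP against naive, from 0.569 to 0.993 for bPYX+NT3 against bPYX+GFP and from 0.335 to 0.888 for bPYX+NT3 against naive. With other scalings, filters or tests and all libraries kept, the log2 fold change was from -0.07 to -0.04, -0.05 to -0.01 and -0.11 to -0.05 in these comparisons. With 1 library left out it was from -0.11 to -0.02, from -0.10 to 0.012 and from -0.16 to -0.06. The positive value arose without bPYX+NT3 replicate 6.

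Without TMM scaling, the difference per M with 1 library left out was from -1389 to 20.9 (without naive replicate 2), from -789 to 456 and from -1545 to -135.4. For bPYX+NT3 against bPYX+GFP its sign turned without bPYX+GFP replicate 1 (281.7) or 6 (202.6) or bPYX+NT3 replicate 3 (214.9) or 6 (456.4). The cause was not tested. With the 5 most abundant miRNAs left out of the total, the differences were -664, -2092 and -2756 per M, against means of 53776 (naive), 53112 (bPYX+GFP) and 51020 (bPYX+NT3), and with all reads as the total -263.0, -105.6 and -368.6. With the usual total they were -700.9, -156.2 and -857.2. The number of the vessel list called after injury was from 0 to 2 with 1 library left out, and 2 without naive replicate 2, where 20 of all 373 tested miRNAs were called. Over all tested miRNAs, 9 were called after injury, from 3 to 20 with 1 library left out and 23 with DESeq2. With NT3 against naive these counts were 0, 0 to 4 and 1. The list's count was 0 in the other comparisons under all settings.

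Replicate numbers were not taken to pair rats. Correlations of same-numbered libraries ran from -0.351 to 0.333, but those of other pairs were not computed, so pairing was not tested. With the replicate number as a block the log2 fold changes were -0.06, -0.04 and -0.11, and no call of miR-126a-3p or of the vessel list changed. The 95% intervals, not read depth, limit what can be said of miR-126a-3p, while for miR-126a-5p the table holds no counts.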
